A study of Homo sapiens with 4 samples.

Results

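Isolated H3K4me3 peaks are control peaks that stand alone in long stretches without any other peak of the mark. The mark, trimethylation of lysine 4 of histone H3, was mapped by ChIP-seq in control cells and in ARID1A knockout cells of MDA-MB-231, an established triple-negative breast cancer line. There was 1 H3K4me3 immunoprecipitate (IP) and 1 input library of each genotype, and each genotype is represented by 1 list of peaks called by the authors against its own input, in hg19 coordinates. Both genotypes share the cell line and the labels name no treatment. The labels do not say whether the knockout cells are 1 clone, and the knockout list's header carries the name K6, which no label explains. Both input libraries are titled as inputs but carry IgG as antibody label, and the labels do not settle which of these they are. The cell line label of 3 libraries ends in other numbers, and the name in the series title was used.

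Members were chosen by measured values of the control list, namely the width and the position of each peak. A peak of at least 1000 bp and under 10 kb on chromosomes 1 to 22 was taken as isolated when the nearest other control peak on the left and on the right, of any width, lay 200 kb or more away from edge to edge. The rule found 603 isolated peaks, which is 1.77% of the 34095 control peaks of the same widths and chromosomes, in a list of 36677 control peaks. They were set beside 7766 crowded peaks of the same widths and chromosomes, which had both neighbours within 20 kb. As far from their neighbours, but outside the rule, were 43 narrower peaks and 4 peaks of 10 kb or more on chromosomes 1 to 22, and 51 peaks of the same widths on X and Y. A further 6 peaks were the first or last of their chromosome and had their only neighbour at such a distance.

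H3K4me3 is laid down by the SET1 and MLL methyltransferase complexes and marks the start sites of active genes, most of all those that lie in CpG islands. Long stretches with few genes, often called gene deserts, hold few such start sites, and many lie in late-replicating chromatin at the nuclear lamina. ARID1A is a subunit of the BAF form of the SWI/SNF remodeller, which moves or removes nucleosomes with energy from ATP. Which genes start in the isolated peaks was not analysed here, since the annotation at hand is of another genome build than the peaks.

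The libraries differed in ways that touch every comparison of the genotypes. The control IP held 27748061 tags, of which 62.1% lay in its peaks, and the knockout IP held 13391724, of which 99.4% lay in its peaks. These shares set the tags listed for peaks against the header's total for the library. Whether both were counted alike was not analysed here. The median width was 2968 bp in the control list and 300 bp in the knockout list, and 55.0% of knockout peaks were exactly 300 bp wide, the fragment length used in peak calling. The part of these differences in the overlaps below was not tested. With 1 IP library per genotype no difference between genotypes could be tested, and the exact intervals below cover counting error only. Whether copies of 1 fragment count as separate tags is not known, since neither molecular identifiers nor removal of duplicate reads is mentioned.

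Isolated peaks were most common, relative to all peaks of their widths, on chromosomes 13, 4 and 5, and rarest on chromosomes 19, 22 and 17. On chromosome 13, 37 of 894 peaks were isolated (4.14%, exact Clopper-Pearson 95% interval 2.93 to 5.66%). On chromosome 4 there were 63 of 1646 (3.83%, 2.95 to 4.87%) and on chromosome 5 there were 57 of 1845 (3.09%, 2.35 to 3.98%). Chromosome 19, known for its dense genes, had 2 isolated peaks among 1451 (0.138%, 0.0167 to 0.497%), chromosome 22 had 2 among 706 and chromosome 17 had 7 among 1603. Each of the 22 chromosomes held at least 2. These shares follow from the spacing of the control peaks, which the rule used, and describe it.

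**Figure D1:**
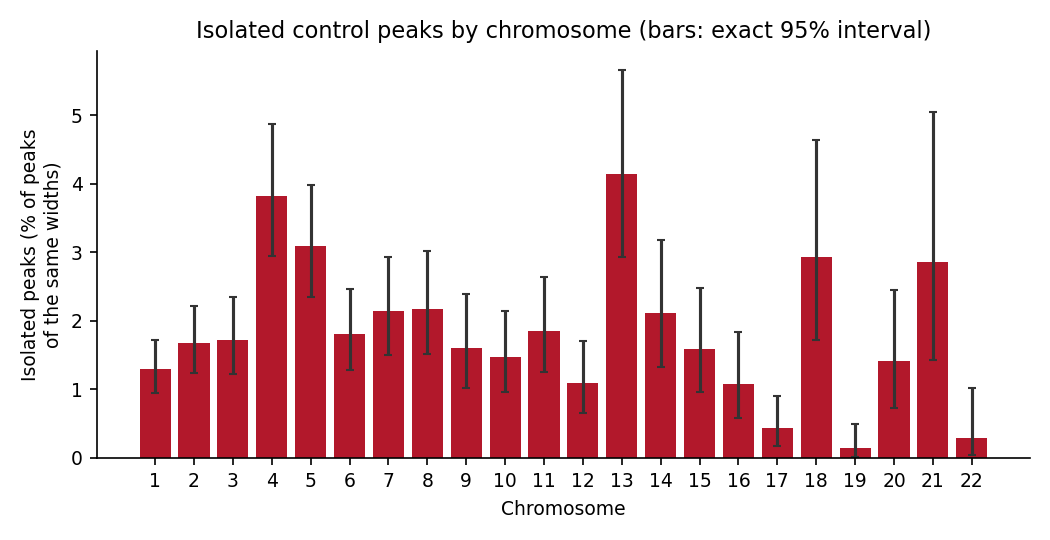
Share of control peaks from 1000 bp to under 10 kb that were isolated (y axis, percent) on each of chromosomes 1 to 22 (x axis), with exact 95% intervals as bars. The highest columns are chromosome 13 at 4.14% and chromosome 4 at 3.83%, and the lowest is chromosome 19 at 0.138%.

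The distance to the nearer control peak had a median of 317506 bp (quartiles 243480 and 459294 bp) and the distance to the farther one a median of 667020 bp. Isolated peaks often followed each other along a chromosome. Of the 603, 312 (51.7%) had another isolated peak as a direct neighbour, and 172 lay in 49 runs of 3 or more. By the rule, the direct neighbour of an isolated peak already has 200 kb or more free on the shared side. These counts therefore describe the spacing that the rule used and are no test of clustering. The longest run held 7 isolated peaks in a row over 3.64 Mb of chromosome 4, from 131483973 to 135123799. From left to right these 7 peaks held 95, 41, 403, 251, 35, 349 and 195 control tags, so 3 of the 7 held under 100 tags, and no knockout peak overlapped any of them. The second longest run held 6 isolated peaks over 2.90 Mb of chromosome 13, from 60349515 to 63253050, with 117, 1034, 1044, 80, 42 and 43 tags. In this run 2 strong peaks stood between weak ones, and 1 of the 6 peaks held a knockout peak. A run of 5 on chromosome 1, from 104066646 to 107601793, had its strong peaks at its ends, with 1072 and 1103 tags, and peaks of 53, 50 and 40 tags between them. None of these 5 held a knockout peak.

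The most remote isolated peaks were weak. The peak on chromosome 13 from 55851625 to 55853172 had its neighbours 2425 and 2352 kb away and held 50 control tags (exact Poisson interval 37.1 to 65.9) over 1548 bp, at a false discovery rate (FDR) of 9.37%. On chromosome 16, the peak from 34978900 to 34980940 held 93 tags over 2041 bp, with 1716 kb free on the left and 11626 kb on the right. Whether that longer stretch crosses the centromere or unassembled sequence was not analysed here. A second peak on chromosome 16, from 61341580 to 61343014, held 64 tags and stood 1670 and 3106 kb from its neighbours. The nearest knockout peak to these 3 was 904, 988 and 1308 kb away.

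Just inside the limit of 200 kb lay a peak on chromosome 7 from 146893159 to 146895970, with a nearer neighbour at 200006 bp and 222 tags, and a peak on chromosome 1 from 90868068 to 90869885, at 200073 bp and 87 tags. Just outside lay a peak on chromosome 4 from 95126961 to 95131603, at 199653 bp and 758 tags, and a peak on chromosome 7 from 138142661 to 138148902, at 199611 bp and 1654 tags. The last of these 4 overlapped a knockout peak of 186 tags, and the other 3 overlapped none.

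Most isolated peaks were weak and narrow, and a minority were as dense and as enriched as strong crowded peaks. The median was 88 control tags (quartiles 56 and 188, range 31 to 2122), against 161 in crowded peaks (quartiles 81 and 477) and 163 over all 34095 peaks of the same widths. The median width was 1936 bp (quartiles 1521 and 2787 bp) in isolated and 3111 bp in crowded peaks. Tag density differed less, with a median of 45.1 tags per kb against 51.3. The authors' fold enrichment over input differed least, with a median of 19.4 against 21.3. All these values come from the list that chose the members, so they are a description and were not tested.

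**Figure D2:**
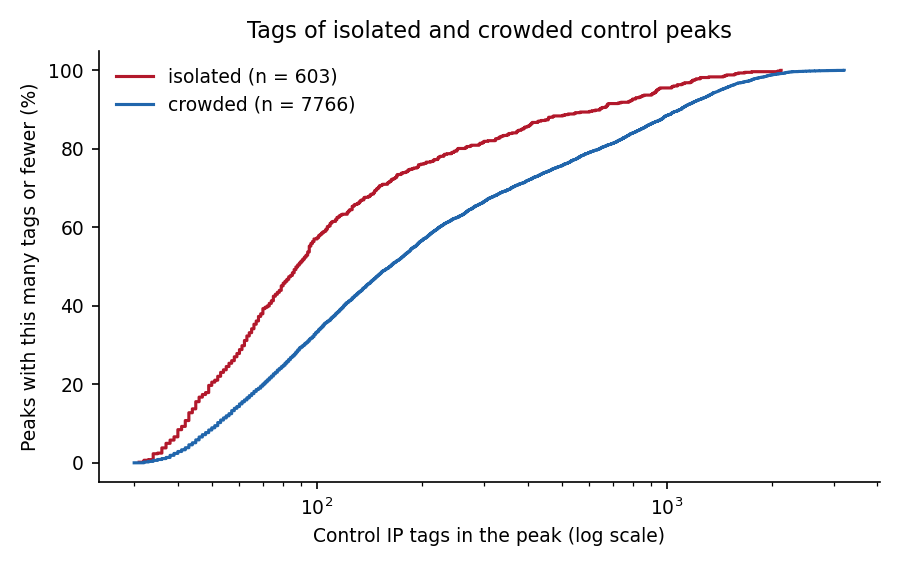
Cumulative share of peaks (y axis, percent) up to a given number of control IP tags (x axis, log scale) for 603 isolated and 7766 crowded control peaks. The isolated curve lies to the left, with 57.0% of isolated and 33.1% of crowded peaks under 100 tags.

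By strength, 344 isolated peaks (57.0%) held fewer than 100 tags, against 33.1% of crowded peaks. At the other end, 70 isolated peaks (11.6%) held 500 tags or more, against 24.3% of crowded peaks. These 70 held 53.0% of the 129405 tags in isolated peaks. They had a median width of 5018 bp, a median of 175 tags per kb and a median fold enrichment of 111. The 1891 crowded peaks of 500 tags or more had medians of 6251 bp, 165 tags per kb and 102. Strong isolated peaks were thus narrower than strong crowded peaks and about as dense.

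The weakest isolated peaks had high false discovery rates in the control list. An FDR of 1% or less was given to 218 isolated peaks (36.2%), against 52.0% of crowded peaks, and 183 (30.3%) had an FDR above 5%, against 23.2%. For the 119 isolated peaks under 50 tags the median FDR was 19.2%, and for the 70 strongest it was 0.07%. The FDR is the authors' value for each peak and was used only to describe or filter peaks within the list.

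The summit lay in the central one of 3 equal segments of the peak for 491 isolated peaks (81.4%) and for 71.2% of crowded peaks. Among crowded peaks 29.6% had a neighbour within 1 kb, and the part of such close pairs in these values was not tested.

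The strength of control peaks did not fall steadily with distance from the next peak. The median rose from 151 tags where the nearer neighbour was under 5 kb away to 187 tags at 20 to 50 kb. It was 169 tags at 50 to 100 kb, 123.5 at 100 to 200 kb, 89 at 200 to 300 kb, 93 at 300 to 500 kb and 76.5 at 500 kb or more. The low values therefore began beyond 100 kb and changed little past the limit of 200 kb. The median width showed no such rise, at 3020 bp under 5 kb, 3010 bp at 20 to 50 kb, 2376 bp at 100 to 200 kb and 1774 bp at 500 kb or more.

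The control peaks at the far ends of the empty stretches also had a low median of tags. The 815 flanking control peaks that were not members, which could be of any width, held 114 tags in the median, with quartiles of 59.5 and 413. Their median width was 2332 bp. The median over all control peaks from 1000 bp to under 10 kb was 163 tags. An isolated peak was weaker than both of its neighbours in 210 cases (34.8%) and stronger than both in 171 (28.4%). Here the neighbours could themselves be isolated peaks. No like shares of crowded or of all control peaks stand beside these values, which show no trait particular to isolated peaks.

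Knockout peaks, whose positions the rule did not use, were found in 100 of the 603 isolated peaks (16.6%, 13.7 to 19.8%). Over all control peaks of the same widths and chromosomes the share was 27.1%, and among crowded peaks it was 25.8% (24.9 to 26.8%). Among the 815 flanking peaks of any width at the far ends of the stretches it was 19.9% (17.2 to 22.8%, 162 of 815), closer to the isolated share. Within the isolated peaks the share did not fall steadily with distance to the nearer control peak. It was 13.0% (9.31 to 17.6%) at 200 to 300 kb and 20.4% (14.9 to 26.8%) at 300 to 500 kb. At 500 kb or more it was 18.4% (12.3 to 25.9%). The isolated share lay below the crowded share on 11 of the 13 chromosomes with at least 20 isolated peaks, with chromosomes 9 and 10 as the exceptions. The gap was small on chromosomes 4, 5 and 13, where isolated peaks were most common. There the shares were 15.9% isolated and 16.9% crowded, 24.6% and 25.7%, and 10.8% and 11.7%. On chromosome 10 the shares were 34.6% (17.2 to 55.7%) isolated and 21.4% crowded, and on chromosome 9 they were 30.4% (13.2 to 52.9%) and 27.4%. The lowest isolated shares on these 13 were 5.71% on chromosome 8 and 6.25% on chromosome 2. Chromosomes with fewer than 20 isolated peaks were split. The isolated share lay above the crowded share on chromosomes 12, 15, 18 and 21, and below it on 16, 17, 19, 20 and 22. Chromosomes 12 and 15 had 19 isolated peaks each, with shares of 21.1% isolated and 19.9% crowded, and 26.3% and 18.2%.

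Isolated peaks with a knockout peak were the strong ones. Their medians were 428 control tags (quartiles 197 and 853), 3776 bp and 118 tags per kb. The medians of the 503 without were 77 tags (quartiles 52 and 126), 1796 bp and 42.4 tags per kb. The ranges overlapped widely, from 34 to 2122 tags with a knockout peak and from 31 to 1599 tags without.

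**Figure D3:**
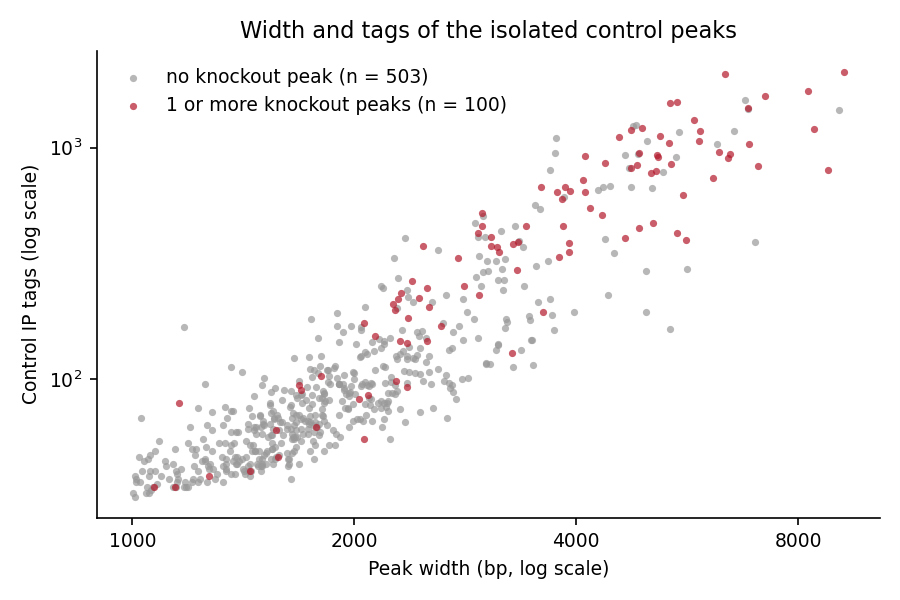
Width (x axis, bp, log scale) and control IP tags (y axis, log scale) of each of the 603 isolated peaks, with the 100 that overlapped a knockout peak in red and the 503 others in grey. Red points gather among wide, tag-rich peaks, and a few lie among peaks under 100 tags.

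At like control tags the isolated peaks held a knockout peak about as often as the crowded ones, with 1 band apart. At like tags per kb they did not in each class, as given below. Under 50 control tags the shares were 4.20% (1.38 to 9.53%, 5 of 119) isolated and 3.85% crowded. From 50 to under 100 tags they were 4.44% (2.15 to 8.02%, 10 of 225) and 6.19%, and from 100 to under 200 tags 9.57% (4.87 to 16.5%, 11 of 115) and 11.6%. At 500 tags or more they were 62.9% (50.5 to 74.1%, 44 of 70) and 68.9% (66.8 to 71.0%). In these 4 bands the crowded share lay inside the isolated interval.

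The band from 200 to under 500 tags ran the other way. Here 30 of 74 isolated peaks held a knockout peak (40.5%, 29.3 to 52.6%), against 347 of 1474 crowded peaks (23.5%, 21.4 to 25.8%). Control peaks of neither class had 24.0% in this band. The 30 peaks were spread over 14 chromosomes, with at most 4 on any 1. Isolated peaks of this band were narrower and denser, with medians of 3064 bp and 96.4 tags per kb against 4205 bp and 69.2. Within the band, the isolated and crowded shares were 39.7% and 22.1% for peaks under 4 kb, and 45.5% (5 of 11) and 24.7% for peaks of 4 kb or more. The band was singled out after its values were seen and the difference was not tested.

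**Figure D4:**
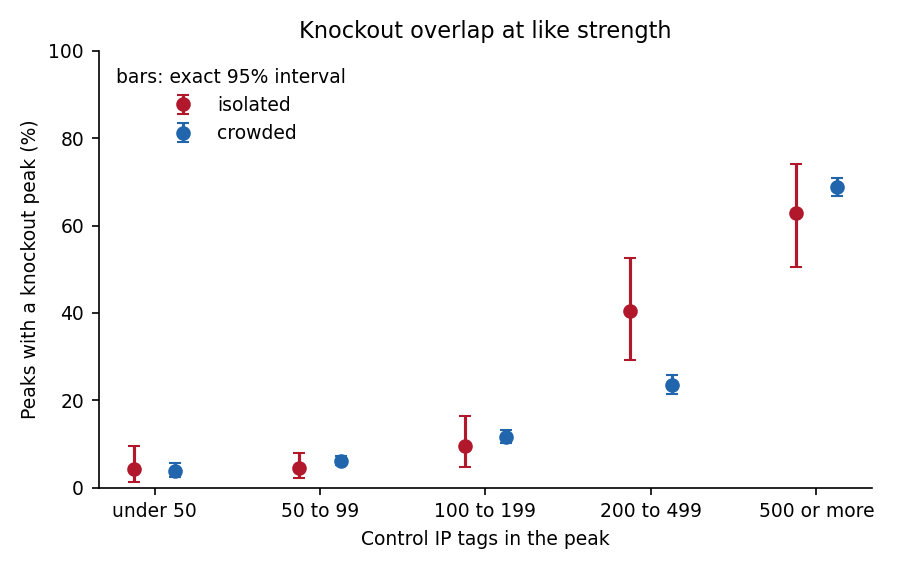
Share of peaks overlapping the knockout list (y axis, percent, exact 95% intervals) in 5 bands of control IP tags (x axis) for isolated and crowded peaks. Both classes rise with tags, and the intervals are apart only in the band from 200 to under 500 tags, at 40.5% and 23.5%.

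When the crowded shares were weighted to the strengths of the isolated peaks over these 5 bands, the crowded share came to 16.2%, beside 16.6% for isolated peaks. Weighted over bands of tags and width together it was 15.7%. Weighted over 5 equal classes of tags per kb it was 21.1%, and weighted only by chromosome it was 22.7%. Weighted by width it was 14.1%. The isolated 16.6% thus lay near or above the crowded share weighted by tags or width, and below it when weighted by density or chromosome. By tags per kb, the crowded share lay above the isolated interval in some classes. It was 9.10% against 3.75% (1.39 to 7.98%, 6 of 160) from 35.6 to 46.6 tags per kb. From 46.6 to 71.4 it was 15.3% against 7.75% (3.78 to 13.8%, 10 of 129), and above 157 it was 76.8% against 58.8% (44.2 to 72.4%, 30 of 51). Below and between these classes it lay inside, at 5.84% against 4.43% (1.80 to 8.92%) and 42.4% against 44.8% (35.0 to 54.8%). The near-equal values at equal tags rest on the band from 200 to under 500 tags: without it the shares were 13.2% (10.5 to 16.4%, 70 of 529) isolated and 15.1% crowded. None of these differences was tested.

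Knockout peaks inside isolated peaks were close in tags and width to those inside crowded peaks. There were 121 of them, with a median of 458 tags (quartiles 204 and 816), and 52.9% were exactly 300 bp wide. Inside crowded peaks the 2610 knockout peaks had a median of 469 tags, and 51.0% were 300 bp wide. In isolated peaks the knockout summit was a median of 362 bp from the control summit, and 68 of 121 (56.2%) lay within 500 bp. In the wider crowded peaks the median was 584 bp and the share 45.4%. Of the 100 isolated peaks, 84 held 1 knockout peak and 16 held 2 or more, with a maximum of 4.

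Control tags told little about knockout tags within the isolated peaks. Spearman's rho across the 100 was 0.16, and across the 2006 crowded peaks with a knockout peak it was 0.33, both as descriptions across regions of the same 2 IP libraries, with no test. The median knockout count was 619 tags in the 5 isolated peaks under 50 control tags, 364 in the 30 peaks from 200 to under 500 and 542.5 in the 44 peaks of 500 or more. At each strength a few peaks had far more or fewer knockout tags, with a range of 14 to 2747 in the strongest band.

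The 5 strongest isolated peaks included 4 with a knockout peak and 1 without. The strongest, also the widest, lay on chromosome 1 from 176171148 to 176180378, with 2122 control tags (2033 to 2214) over 9231 bp and with 1008 and 821 kb free on its sides. It held a single knockout peak of 300 bp and 187 tags (161 to 216), 434 bp from the control summit. Next came chromosome 8, 121454684 to 121461040, where 2075 control tags lay over 6357 bp, which at 326 tags per kb made it the densest of the 603. It overlapped 2 knockout peaks of 204 and 614 tags. On chromosome 3 from 64669323 to 64677569, 1749 control tags stood beside 2 knockout peaks of 167 and 169 tags, at 2920 and 1740 bp from the control summit. Knockout tags were therefore fewer than control tags at each of these 3 peaks, in libraries of different depth. The knockout peaks covered only 300, 680 and 780 bp in them, so the counts also come from unlike lengths.

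On chromosome 15 from 37388974 to 37396188 the order was the reverse. This peak held 1670 control tags over 7215 bp and 3 knockout peaks with 2146 tags over 2145 bp together. Of these knockout tags, 1589 lay in a knockout peak of 1072 bp at 2965 bp from the control summit. The most knockout tags were found on chromosome 12 from 20971095 to 20979862, where 4 knockout peaks of 78, 1349, 694 and 626 tags stood in a control peak of 797 tags and 8768 bp. On chromosome 3 from 173111636 to 173117416, 3 knockout peaks of 300 bp held 894, 586 and 976 tags, against 1317 control tags. Another peak on chromosome 3, from 79066741 to 79069560, paired 252 control tags with a knockout peak of 1678 bp and 1800 tags.

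Some weak isolated peaks held tag-rich knockout peaks. On chromosome 7, 119912210 to 119913893, 94 control tags (76.0 to 115) stood beside 1 knockout peak of 456 bp with 2012 tags (1925 to 2102), 167 bp from the control summit. Under 100 control tags, 15 of 344 isolated peaks held a knockout peak, and in 14 of these 15 the knockout tags outnumbered the control tags. Among the 44 isolated peaks of 500 tags or more with a knockout peak, this was so in 16. Over all strengths it was so in 54 of 100 isolated and in 946 of 2006 crowded peaks with a knockout peak (47.2%). Weak crowded peaks with a knockout peak also held many knockout tags. Under 50 control tags the median was 446 in crowded and 619 in isolated peaks, and from 50 to under 100 it was 352 and 419. A count of knockout tags comes only from peaks that passed the knockout threshold. Knockout peaks were also narrower, with a median of 300 bp against 2968 bp, and the libraries differ in depth. These counts therefore give no direction of change.

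Some of the strongest isolated peaks had no knockout peak. The first lay on chromosome 3 from 110787906 to 110794671, where 1599 control tags (1522 to 1679) covered 6766 bp. Its closest knockout peak was 449530 bp away, and both its control neighbours were nearer than that. Then followed 1467 tags in the peak at 57902334 to 57909172 of chromosome 8. The peak at 130010199 to 130019285 of chromosome 4, the widest but one, had 1450 tags over 9087 bp. The nearest knockout peaks of these were 403 and 180 kb away. A further peak on chromosome 4, from 107235343 to 107240158, held 1247 tags, and one on chromosome 8, from 100902844 to 100907610, held 1245 tags, with knockout peaks 30.3 and 32.4 kb away. Each of these 5 had an FDR of 0.07% and a fold enrichment between 128 and 157.

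The stretches around the isolated peaks were sparse in the knockout list as well. Within 200 kb of isolated peaks, over 233 Mb outside all control peaks, the knockout list held 461 peaks, or 1.98 per Mb (exact Poisson interval 1.80 to 2.17). Around crowded peaks, over 850 Mb outside control peaks, it held 4595, or 5.40 per Mb (5.25 to 5.56). Inside the peaks themselves the densities were close, at 83.4 per Mb (69.2 to 99.7) in isolated and 90.5 per Mb (87.1 to 94.1) in crowded peaks. Knockout peaks were therefore 42.2 times denser inside isolated peaks than in the stretches around them, and 16.8 times denser inside crowded peaks than in the sequence between. The knockout peaks in the stretches had a median of 312 tags (quartiles 110 and 610), below the 458 of those inside isolated peaks, and 62.9% were 300 bp wide. Unassembled sequence was not taken out of these lengths.

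**Figure D5:**
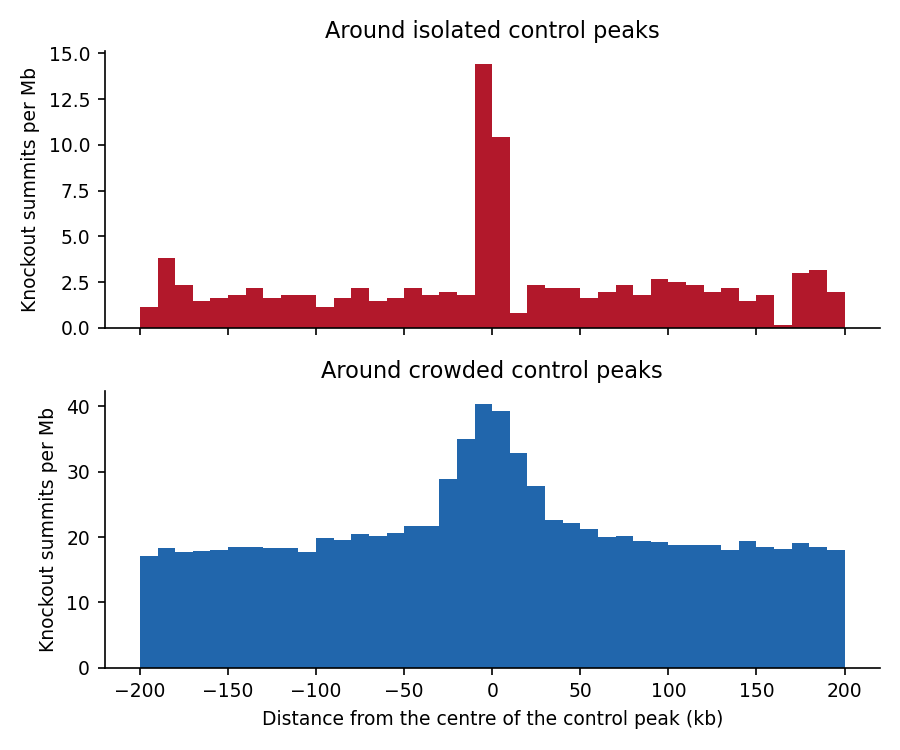
Density of knockout summits (y axis, per Mb, separate scales) by distance from the centre of the control peak (x axis, kb, bins of 10 kb) for isolated (upper) and crowded (lower) control peaks. Around isolated peaks the 2 central bins reach 14.4 and 10.4 per Mb and the other 38 lie between 0.166 and 3.81, while around crowded peaks the other bins lie between 17.1 and 34.9. Windows around crowded peaks overlap, so 1 summit can count in several, and they hold other control peaks. The rule leaves no other control peak within 200 kb of an isolated peak. Outside all control peaks the densities within 200 kb were 1.98 per Mb around isolated and 5.40 per Mb around crowded peaks.

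For single isolated peaks, 256 of the 603 (42.5%) had no knockout peak inside or within 200 kb. Another 247 (41.0%) had none inside and at least 1 within 200 kb, 57 (9.45%) had both, and 43 (7.13%) had a knockout peak inside and none around it. Over the whole stretch between the neighbouring control peaks, which mostly reaches further, 87 isolated peaks (14.4%, 11.7 to 17.5%) had no knockout peak inside or elsewhere in it. In 16 (2.65%, 1.52 to 4.27%) the knockout list had a peak inside the isolated peak and none elsewhere in the stretch, and in 416 (69.0%) it had none inside and at least 1 elsewhere. For the 503 isolated peaks without a knockout peak the nearest one was a median of 206152 bp away, and 7 had one within 1 kb. No like shares of crowded peaks or of all control peaks stand beside the counts of this paragraph. They describe the isolated peaks only and do not show a trait particular to them.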

How the data were processed

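H3K4me3 ChIP libraries were compared as 1 peak list per genotype, and samples were grouped by their titles. The submitters' processing notes name Bowtie2 2.2.4 and MACS 1.4.3, with hg19. Per the file headers, peaks of each IP were called by MACS with an input as background and a p cutoff of 0.0001. The headers also give a fragment length of 300 bp and scaling of the larger library to the smaller. By the names of the peak lists, each input was of the same genotype as its IP. The deposited tags are whole counts of IP tags per peak. The deposited score has lost its column name and was read as 10 times the negative log10 of p, as MACS writes it. The knockout list was matched to its libraries by name alone. Whether duplicate reads were removed is not stated in the labels or headers. The deposited fold enrichment is a ratio of IP to local input. The deposited FDR is in percent. Positions and widths are in bp.

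Distances were counted as bases between peak edges, and peaks overlapped when they shared 1 bp. Both steps were tested on simulated data, and gave the same values as bedtools 2.31.1 for all 36677 control peaks. Shares have exact Clopper-Pearson and tag counts exact Poisson 95% intervals. The scripts used scipy 1.17.1, numpy 2.4.6 and pandas 2.3.3 in Python 3.11.15, with plots from matplotlib 3.10.9. Named regions are the 5 isolated peaks with the most control tags, the 5 with the most tags without a knockout peak, the 5 with the most knockout tags, the 3 most remote, the 2 widest and 2 on each side of the limit. The longest runs were chosen after their values were seen. The members, bands and lists were chosen with earlier results of these data known. No test of the genotype was made, since there is 1 IP library each. Gene annotation and sequence in hg19 were not used here.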

Additional observations from a re-analysis of the deposited data

How the results depend on the processing

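With no replicates, counts were taken as kept within 1.5 times, and shares and medians within the counting interval of the reported value. A limit of 100 kb gave 1765 isolated peaks, of which 21.8% held a knockout peak, with medians of 107 tags and 2195 bp. A limit of 300 kb gave 327 peaks, of which 19.6% held a knockout peak. With only isolated peaks at an FDR of 1% or less, 218 were left, with 38.1%, 304 tags and 3138 bp. With the whole control list so limited before distances were measured, 34.0% held a knockout peak at medians of 318 tags and 3369 bp. Counting only knockout peaks wider than 300 bp, the shares were 8.62% isolated and 14.3% crowded. The crowded share was also 28.3% with a knockout peak within 1 kb, 24.3% and 27.2% with neighbours within 10 and 50 kb, 28.6% at any width and 42.6% at an FDR of 1% or less. The crowded share at equal strength was 21.1% over 5 classes of tags per kb, 22.7% over chromosomes and 14.1% over widths. Without the band from 200 to under 500 tags it was 15.1%, beside 13.2% for isolated peaks. In all, 35 alternative values stayed within these limits, the share at 300 kb among them. The alternatives weighted by chromosome, weighted by width, weighted by width and tags together, without 1 band of tags, without close neighbours within 1 kb and without chromosomes 4 and 5 were chosen after seeing the data. The isolated share lay below the unweighted crowded share under the 6 alternatives run on both. Except where fewer peaks are kept by construction, the cause was not tested. Peaks under 50 tags lie near the calling threshold, which limits what their knockout overlap can show. No paired analysis was possible because each group has 1 library.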
